A study of Mus musculus with 59 samples.

Results

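Cytoplasmic ribosomal protein genes were taken as the protein-coding genes whose mouse symbol is Rps or Rpl followed by a number, with an a, x or y where it applies, together with Rpsa and the P-stalk genes Rplp0 to Rplp2. Rpl10 and the Rps6k kinase genes were left out. The rule used names alone, and it found 75 members, 30 of the small and 45 of the large subunit, among 22134 genes with a listed transcript. All 75 were listed in the epiblast libraries and all 75 passed the filter on low counts in both crosses. RNA sequencing was done on 14 single epiblasts of mixed background at E6.25. The Ehmt2 cross gave 4 G9a+/+ controls and 4 G9a-/- knockouts from 4 litters, and the Ezh2 cross gave 3 controls labelled Ezh+/+ and 3 Ezh-/- knockouts from 3 litters. The methods of the study also admit heterozygous embryos as controls, and heterozygous parents were mated, so the deletion was present in the whole conceptus and not in the epiblast alone. The Ehmt2 parents descended from a cross to a Pou5f1-EGFP reporter line. No treatment was given.

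Ribosomal proteins assemble with ribosomal RNA into the small subunit, which binds mRNA and reads the codons, and the large subunit, which joins amino acids and leads the new chain out through an exit tunnel. A ribosome carries a single copy of each protein, the acidic stalk proteins Rplp1 and Rplp2 excepted, and their mRNAs stand among the most abundant in growing cells such as the epiblast, the pluripotent layer that forms the fetus. Most of these mRNAs start with a terminal oligopyrimidine (TOP) tract, a run of C and T that ties their translation to growth signals. Ehmt2 encodes G9a, which dimethylates histone H3 at lysine 9, and Ezh2 encodes the enzyme that trimethylates lysine 27. The comparison asked whether loss of either enzyme altered the mRNA levels of these genes.

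The RefSeq promoter table (GRCm38.p6) held 55 of the 75 members, with 65 starts. An unbroken run of at least 8 bases, each C or T, overlapped by at least 1 base the 15 bases on either side of the start, on the strand of the gene, at 30 of the 65 starts, or 46.2%, against 17.6% of all 32851 starts in the table. The other strand was not searched, and the match is a description of letters. The windows of 30 bases below belong to members whose values are given further on, with the run in capitals.
Rplp2 (chr7:141447636-141447665, plus strand, run of 10): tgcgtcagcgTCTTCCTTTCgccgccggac
Rps27 (chr3:90213632-90213661, minus strand, run of 9): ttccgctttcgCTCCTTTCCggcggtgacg
Rps10 (chr17:27635227-27635256, minus strand, run of 13): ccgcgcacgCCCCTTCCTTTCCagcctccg
Rps26 (chr10:128626485-128626514, minus strand, run of 9): aagccgccggaTCCTCTTTCgagtcttggc
Rps18 (chr17:33955648-33955677, minus strand, run of 11): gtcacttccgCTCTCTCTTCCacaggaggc
Rpl38 (chr11:114668568-114668597, plus strand, run of 10): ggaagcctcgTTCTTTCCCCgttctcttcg
Rpl35a (chr16:33056468-33056497, plus strand, run of 13): cggggcttgCCTTCCTCTTTCCgccatctt
Rpl5 (chr5:107900497-107900526, plus strand, run of 9): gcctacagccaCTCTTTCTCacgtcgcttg
Rpl11 (chr4:136053358-136053387, minus strand, run of 17): ccggaagTCTCCCTCTCTCTTCCTgttctc
Members of both subunits carried such runs, and the run lengths shown range from 9 to 17 bases. The run of Rpl11 begins at position 14 after the annotated start and reaches beyond those 15 bases, and that of Rpl5 begins at position -20.

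Total counts, with 1 transcript per gene, ran from 12495094 to 18299529 in 12 of the epiblasts and reached 25366782 in Ehmt2 control 4 and 28434545 in Ehmt2 knockout 4. These libraries from the fourth replicate stood apart from the rest in the members too, so Ehmt2 values are given with and without them. Ehmt2 was at 10.3, 11.1, 15.5 and 32.8 CPM (counts relative to the scaled library total) in its controls and at 4.73, 4.47, 3.22 and 9.46 CPM in its knockouts, lower in every knockout than in every control. Ezh2 was also lower in each of its 3 knockouts, at 11.8 to 16.6 CPM against 53.4 to 112 CPM. The 8 epiblast markers summed to 1552 to 2972 CPM in every library. Visceral endoderm markers summed to 1127 CPM in Ezh2 control 2 and 2569 CPM in Ezh2 knockout 1, against 1.49 to 57.5 CPM elsewhere. Extraembryonic ectoderm markers summed to 332 CPM in Ehmt2 knockout 1 and to 29.4 to 152 CPM in the others, and 4 of the 8 (Elf5, Tfap2c, Esrrb and Bmp4) rose in the Ehmt2 knockouts by edgeR, with or without replicate 4. Of the 8 epiblast markers, 0 were called in either cross, and 2 (Fgf5 and Dnmt3b) were lower in the Ehmt2 knockouts without replicate 4. Elf5 was at 0 in both libraries of the fourth replicate. The part of these markers in the results below was not tested. In bulk samples fewer cells of a type and less RNA per cell cannot be told apart.

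In the Ehmt2 controls 1 to 3 the members covered a 39.4-fold range of level per transcript length. Rpl41, which encodes a very short basic peptide of the large subunit, was the highest at 1220.0 ± 78.9 CPM per kb (mean ± SD, n = 3), followed by Rps27, a zinc finger protein of the small subunit, at 838 ± 43.9 and Rpl38 at 728 ± 86.0. Rpl10a, a protein of the L1 stalk, stood at 693 ± 49.7 CPM per kb, and Rps6, the substrate of the S6 kinases, at 661 ± 29.6. Rpl41 lay above Rps27 by more than their spread, whereas Rps27, Rpl38, Rpl10a and Rps6 each differed from the next in the order by less than their summed SDs. The lowest were Rps15a at 30.9 ± 2.52, Rps20 at 71.2 ± 6.10, Rpl35a at 87.7 ± 14.6, Rpl22 at 94.4 ± 6.78 and Rps19 at 115 ± 6.85 CPM per kb. Rps15a lay below Rps20 by more than their spread. The low levels went with the length of the transcript that carried the most counts, which was 5179 nt for Rps15a, 3706 nt for Rps20 and 2858 nt for Rpl35a, against a median of 851 nt over the members. For 8 members that transcript is annotated as a retained intron (7 members, Rpl35a and Rps18 among them) or as a target of nonsense-mediated decay (Rpl10a), and reads shared between isoforms were counted for each of them.

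**Figure D1:**
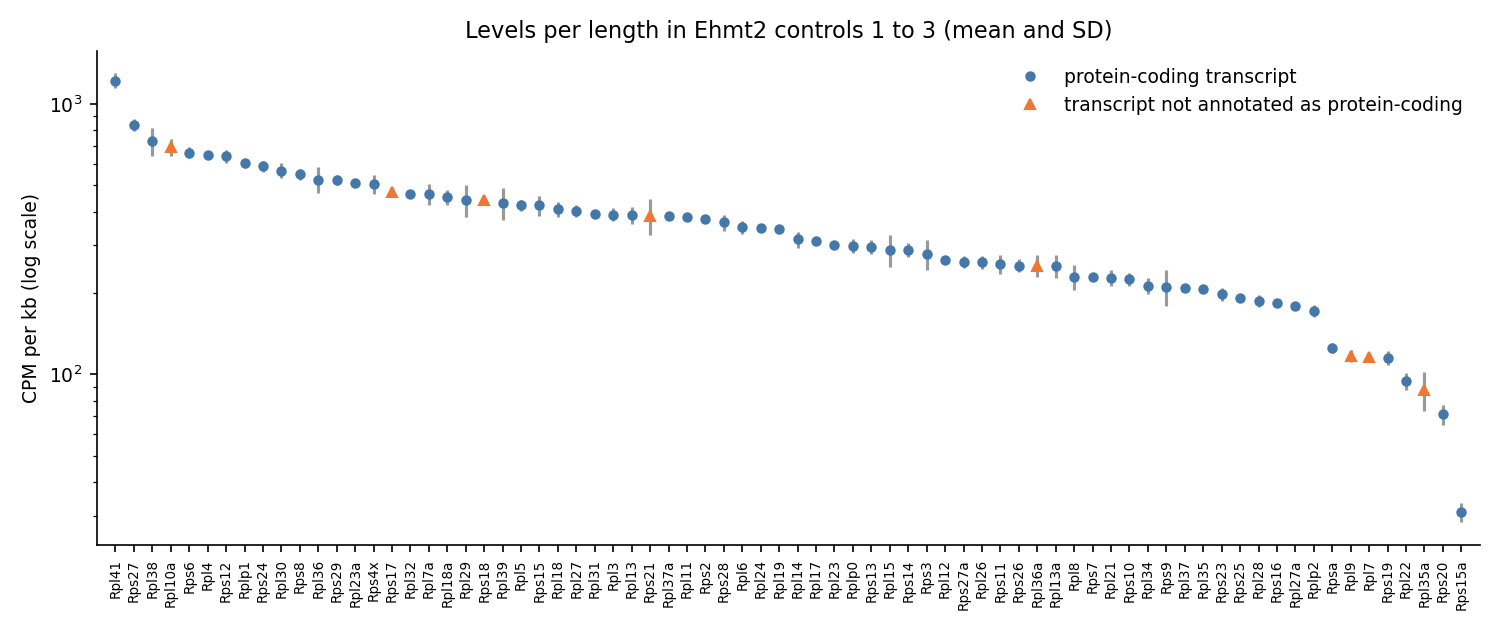
Mean CPM per kb of transcript (log scale) for 74 of the 75 members in Ehmt2 controls 1 to 3, with the SD as a bar, in falling order. Rpl41 is the highest at 1220.0 and Rps15a the lowest at 30.9; triangles mark the 8 members whose transcript is not annotated as protein-coding.

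Replicates agreed closely for these genes. The coefficient of variation within a group, averaged over the Ehmt2 groups without replicate 4 and the Ezh2 groups, had a median of 7.64% over the members and ran from 3.67% for Rpl28 to 18.5% for Rpl15. Over 465 other genes at or above the level of the lowest member the median was 8.09%, and over all 13349 genes tested in both crosses it was 20.8%.

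The share of the library taken by ribosomal protein genes differed between knockout and control epiblasts by less than the spread of the replicates in both crosses. The share was 5.84%, 5.88% and 5.60% in Ehmt2 controls 1 to 3 and 5.71%, 5.63% and 5.84% in knockouts 1 to 3, which overlapped and differed in their means (knockout minus control) by -0.0479 percentage points. In replicate 4 it was 12.8% in the control and 11.0% in the knockout. With all 4 of each, the means were 7.53% ± 3.52 and 7.05% ± 2.65 (SD, n = 4), a spread set by replicate 4. The Ezh2 controls held 5.85%, 5.74% and 5.41%, and the Ezh2 knockouts 5.20%, 6.15% and 5.39%. Knockout 2 was the highest and knockout 1 the lowest of these 6 epiblasts, and the means differed by -0.0864 percentage points. The Wilson 95% interval of a single share was at most 0.0130 percentage points to either side, which is less than the SD of every group; the interval covers counting error only, since amplified reads without molecular identifiers are not independent molecules.

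Both subunits showed this pattern. In the 12 epiblasts outside replicate 4, the 45 large subunit genes took 3.37% to 4.00% of the counts and the 30 small subunit genes 1.83% to 2.14%. Replicate 4 held 8.13% and 4.67% in the control and 6.72% and 4.32% in the knockout. Between 12 and 16 of the 100 most counted genes were members in the 12 epiblasts, against 44 in control 4 and 36 in knockout 4, while the 100 genes together took 22.1% to 24.5% of the counts in every library.

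**Figure D2:**
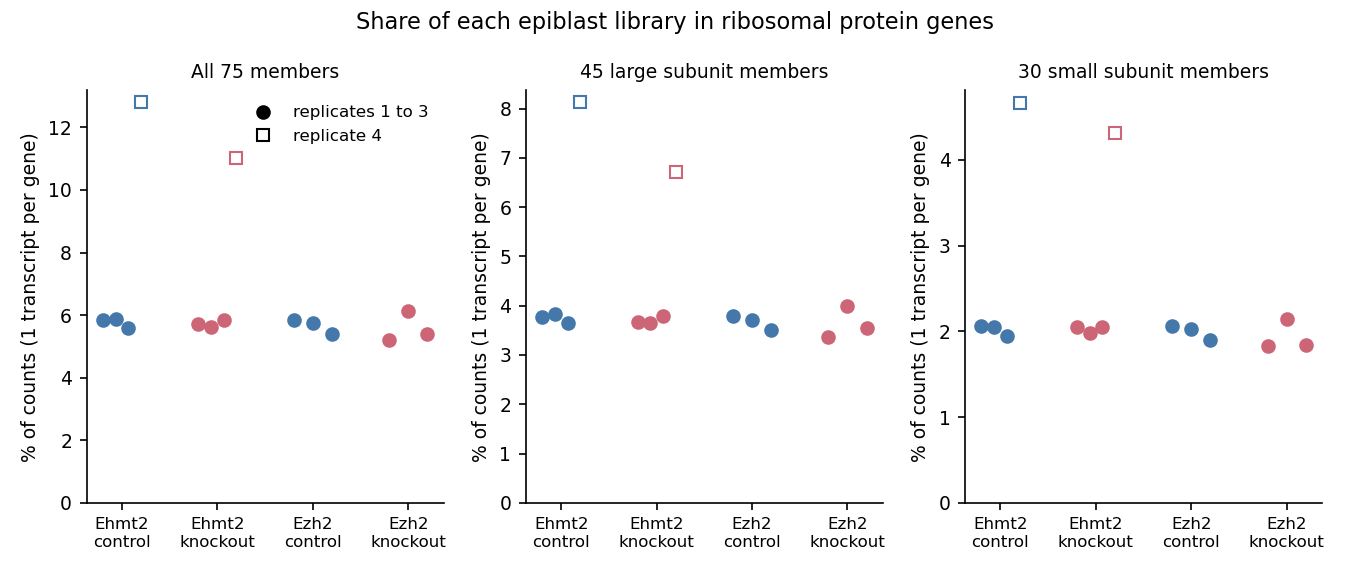
Percent of each library's counts, with 1 transcript per gene, in all 75 members, in the 45 large subunit genes and in the 30 small subunit genes; each point is an epiblast, in 4 groups by cross and genotype, and open squares are replicate 4. All libraries but those of replicate 4 lie between 5.20% and 6.15% for the 75 members, with knockouts and controls overlapping in both crosses.

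In the Ehmt2 knockout no member passed the test. Of 75 members, 0 were called at an adjusted p under 0.05 by edgeR's quasi-likelihood test, where 1.11% of the 13749 genes tested were called. DESeq2 also called 0 members, and 4.55% of the genes. At an unadjusted p under 0.05, 5 members were lower (Rps15, Rps10, Rps26, Rpl27 and Rpl35), or 6.67%, against 6.86% of all genes, and 0 were higher against 8.58%. These shares leave the members at or below the background. The log2 fold changes were small and leaned downward, with a median of -0.10 over the members beside 0.010 over all genes, and 58 of 75 (77.3%) lay below 0 against 48.9% of all genes.

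The lean was smaller without replicate 4. Without control 4 and knockout 4, the median over the members was -0.033 beside 0.0080 over all genes, 50 of 75 (66.7%) lay below 0 against 49% of all genes, and 0 had an unadjusted p under 0.05. No member was called there either, where 1.86% of 13977 genes were. Between knockout 4 and control 4 alone, 54 members were lower and 21 higher, with a median of -0.32 on the log2 scale. Single members moved far in both directions, with -1.12 for Rpl17, -0.96 for Rpl10a and 1.29 for Rps3. This pair has no replicate. The 95% intervals of all 75 members lay between -0.76 and 0.65, and without replicate 4 between -0.44 and 0.44. Each interval is for a single member and is not adjusted for the number of members.

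Among members below the control mean of their own replicates in all 4 knockouts, the largest decreases were those of Rps15, Rps10 and Rps26. Rps15 (ENSMUSG00000063457, chr10:80292453-80294114), which reaches toward the decoding site of the small subunit, was at 224, 217, 191 and 650.0 CPM across Ehmt2 controls 1 to 4 and 182, 180.4, 198 and 288 CPM across the 4 Ehmt2 knockouts. Its log2 fold change was -0.42 ± 0.15 (SE, as for every log2 value; n = 4 and 4; edgeR adjusted p = 0.296) and -0.18 ± 0.10 without replicate 4. The gap between knockout 4 and control 4 exceeded any among the first replicates, whose groups overlapped. Rps10 (ENSMUSG00000052146, chr17:27630418-27635545), mutated in some families with Diamond-Blackfan anaemia, was at 192, 211, 194 and 777 CPM across Ehmt2 controls 1 to 4 and 185, 177, 189 and 352 CPM across the 4 Ehmt2 knockouts. Its change of -0.37 ± 0.15 (edgeR adjusted p = 0.372) became -0.12 ± 0.088 without replicate 4. Rps26 (ENSMUSG00000025362, chr10:128624537-128626747), another gene of that anaemia that lies near the mRNA exit, was at 171, 182, 163 and 780.2 CPM across Ehmt2 controls 1 to 4 and 161, 155, 162 and 376 CPM across the 4 Ehmt2 knockouts. Its change was -0.34 ± 0.14 (edgeR adjusted p = 0.381), and -0.11 ± 0.090 without replicate 4. For Rps10 and Rps26, knockouts 1 to 3 all lay below controls 1 to 3, and the gap was widest in replicate 4. Across the members, 5 had knockouts 1 to 3 below all of controls 1 to 3 (Rpl27a, Rpl35, Rps10, Rps26 and Rps27), or 6.67% against 9.26% of all genes, and 1 (Rps16) had them above, against 10%. With all 8 epiblasts the count was 0, against 2.63% of genes lower and 3.59% higher; nothing is read from it, since both libraries of replicate 4 exceeded all others for 72 members, whose groups then had to overlap.

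Rpl28 and Rpl29, both of the large subunit, followed by the same rule with -0.32 ± 0.15 and -0.30 ± 0.16, which became -0.063 ± 0.086 and -0.053 ± 0.10 without replicate 4. Among members above the control mean of their own replicates in all 4 knockouts, Rps4x had the largest log2 fold change at 0.19 ± 0.10 (edgeR adjusted p = 0.489), then Rps29 at 0.18 ± 0.090, Rps16 at 0.13 ± 0.074 and Rps15a at 0.10 ± 0.086. None of these passed the test. Without replicate 4 the values were 0.21 ± 0.11, 0.072 ± 0.084, 0.093 ± 0.081 and 0.084 ± 0.10. Rps29 was at 0.071 with control 4 alone left out, a fit in which the term for replicate 4 takes up knockout 4 as well. Rps4x was at 0.093 without knockout 1, the library with the most extraembryonic ectoderm markers, and Rps15a at 0.066 without control 3. Rps3 (ENSMUSG00000030744, chr7:99477896-99483738), which lines the entry of mRNA into the small subunit, had the widest interval, from -0.23 to 0.65. It was at 609.5, 496, 492 and 746 CPM across Ehmt2 controls 1 to 4 and 489, 448, 519 and 1827 CPM across the 4 Ehmt2 knockouts. Knockout 4 alone stood far above the rest, and without replicate 4 the change turned to -0.13 ± 0.10.

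**Figure D3:**
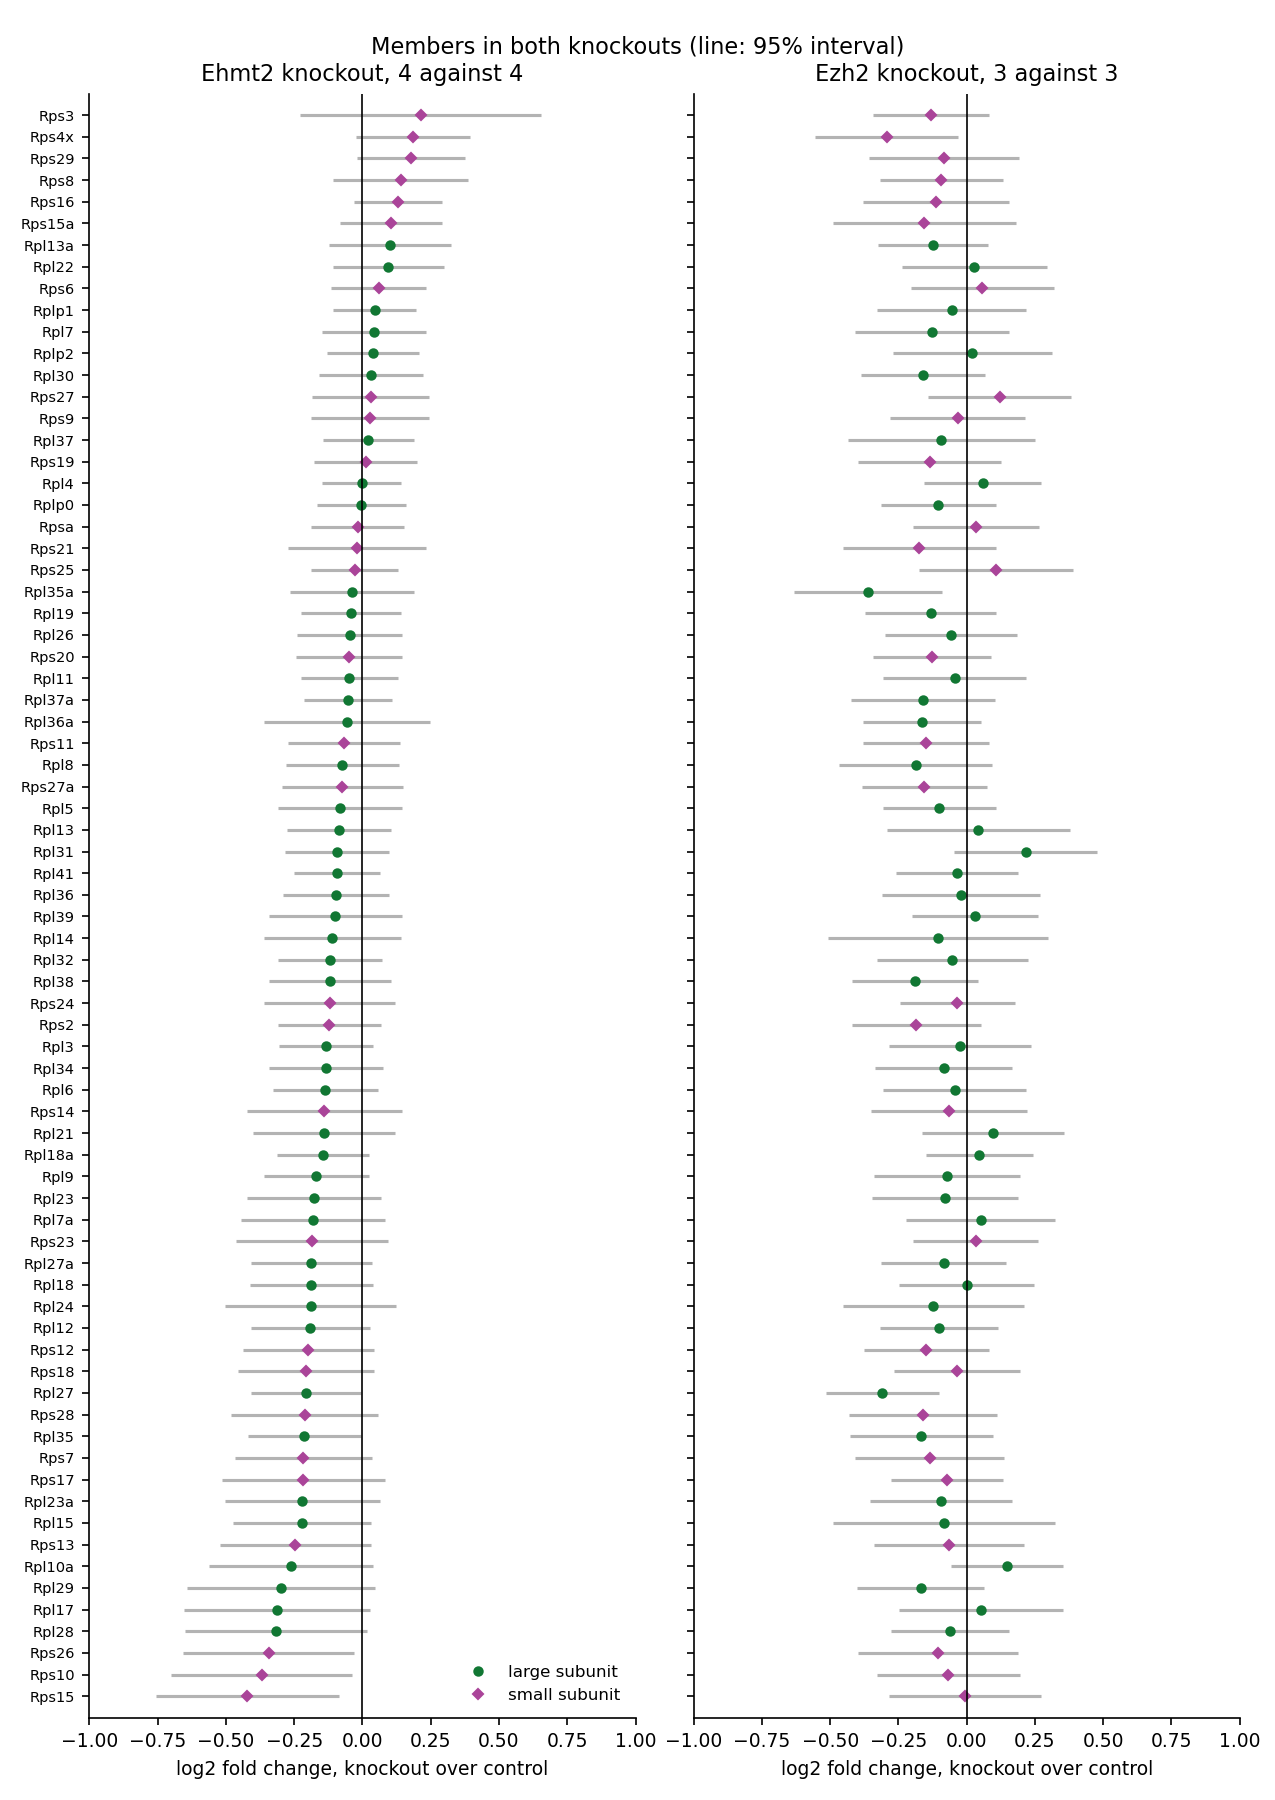
Log2 fold change, knockout over control, of 74 of the 75 members in the Ehmt2 cross (left, 4 against 4) and the Ezh2 cross (right, 3 against 3), ordered by the Ehmt2 value; lines are 95% intervals, circles large and diamonds small subunit genes. Most points lie just below 0 in both, 57 of 74 in each, and no member passed the test.

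In the Ezh2 knockout no member passed the test either, with 0 of 75 called by edgeR and 0 by DESeq2, which called 1.01% of the genes. Only 0.00714% of 14010 genes, the single gene Ezh2 itself, were called by edgeR, so the edgeR count of members says little. At an unadjusted p under 0.05, 3 members were lower (4%) against 3.39% of all genes, and 0 were higher against 5.5%. The median log2 fold change was -0.083 over the members and 0.032 over all genes, and 58 of 75 (77.3%) lay below 0 against 46%. Leaving out knockout 1, which held the most visceral endoderm markers, moved the median to -0.041 and left 45 of 75 below 0, and leaving out knockout 2 moved it to -0.14 with 68 of 75. Without control 2, the other library with those markers, the median was -0.049. The 95% intervals of the members spanned -0.63 to 0.48.

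The members with the smallest p in the Ezh2 cross were Rpl27, Rpl35a and Rps4x. Rpl27 (ENSMUSG00000063316, chr11:101442446-101445529), a large subunit protein, was at 324, 319 and 311 CPM in the Ezh2 controls and 250.0, 271 and 249 CPM in the Ezh2 knockouts. All knockouts lay below all controls, and the log2 fold change was -0.31 ± 0.093 (SE, n = 3 and 3; edgeR adjusted p = 0.560; two-sided exact permutation p = 0.100, the smallest that 3 against 3 allows). In the Ehmt2 cross Rpl27 was at 308, 278, 298 and 542 CPM across Ehmt2 controls 1 to 4 and 282, 257, 277 and 388 CPM across the 4 Ehmt2 knockouts, with a change of -0.21 ± 0.092 (edgeR adjusted p = 0.412) and -0.12 ± 0.085 without replicate 4. It was the only member with an unadjusted p under 0.05 in both crosses, at 0.0447 and 0.00741, and it was picked out after its values were seen. Rpl35a (ENSMUSG00000060636, chr16:33056482-33060175), of the large subunit and mutated in Diamond-Blackfan anaemia, was at 267, 271 and 331 CPM in the Ezh2 controls and 233, 244 and 199.7 CPM in the Ezh2 knockouts. Its groups did not overlap and its change was -0.36 ± 0.12 (edgeR adjusted p = 0.580), counted on a retained-intron transcript. In the Ehmt2 cross it was at 295, 245, 212 and 514 CPM across Ehmt2 controls 1 to 4 and 237, 234, 237 and 551 CPM across the 4 Ehmt2 knockouts, with a change of -0.039 ± 0.10. Groups did not overlap, with the knockouts lower, for 5 members of the Ezh2 cross (Rpl13a, Rpl27, Rpl29, Rpl35a and Rpl36a), or 6.67% against 6.47% of all genes, and 0 had knockouts higher against 7.71%. The members' share was close to the background.

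Rpl38, whose mutation shifts vertebral identity in mice, had a change of -0.19 ± 0.10 and Rps2, at the mRNA entry, -0.18 ± 0.11 in the Ezh2 knockouts. Rpl10a was the only member above the control mean in all 3 Ezh2 knockouts, at 671, 667 and 715 CPM in the Ezh2 controls and 689.8, 803 and 783 CPM in the Ezh2 knockouts, with 0.15 ± 0.093 (edgeR adjusted p = 0.807). Rpl31, near the exit tunnel, had the highest value at 0.22 ± 0.12, with 2 of 3 knockouts above the control mean.

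**Figure D4:**
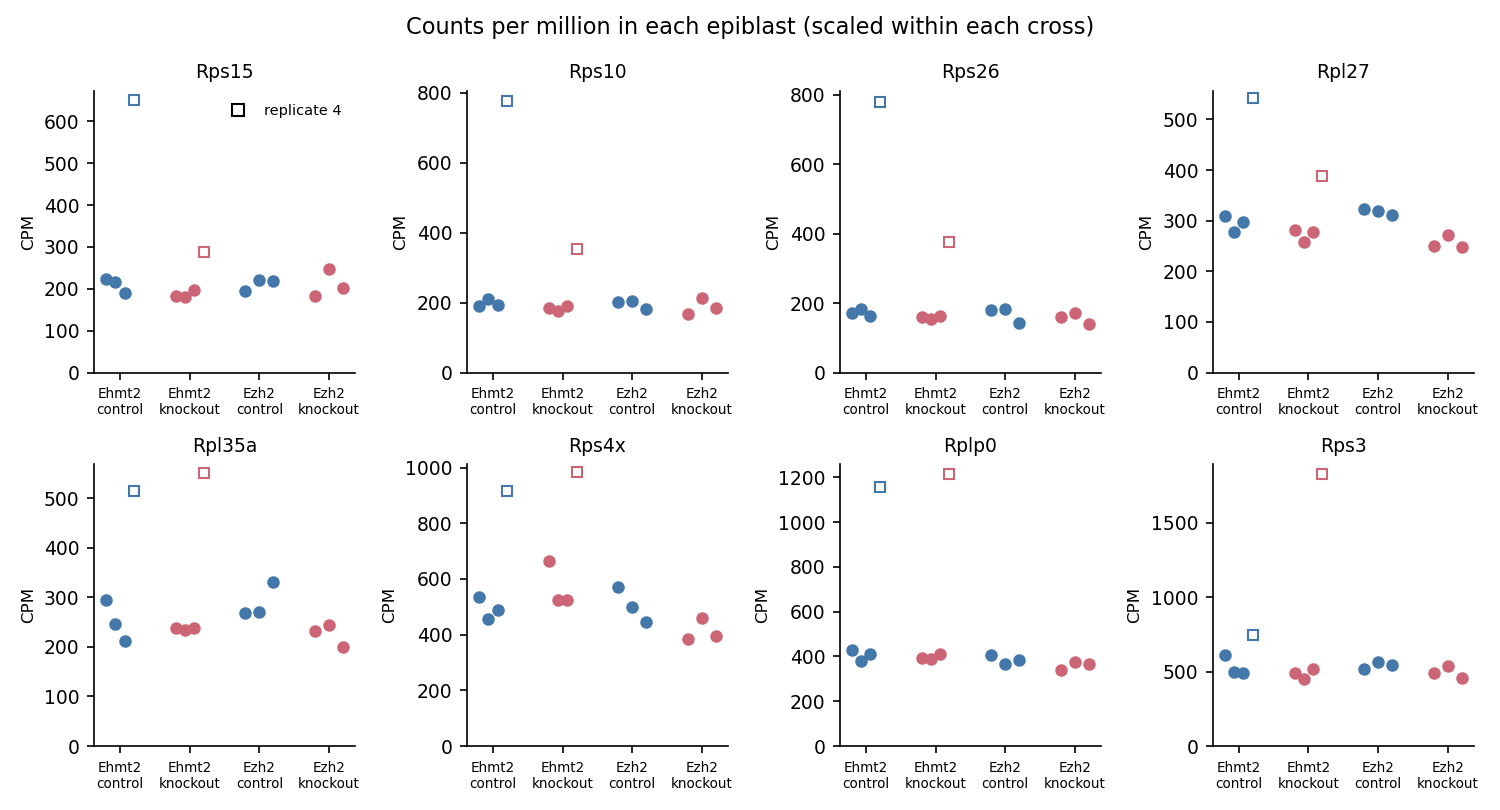
CPM of 8 members (Rps15, Rps10, Rps26, Rpl27, Rpl35a, Rps4x, Rplp0 and Rps3) in each of the 14 epiblasts, grouped by cross and genotype with axes from 0; open squares are replicate 4 of the Ehmt2 cross. For Rps15, Rps10 and Rps26 control and knockout lie farther apart in replicate 4 than in the other replicates, Rpl27 is lower in all 3 Ezh2 knockouts, and Rplp0 is level apart from replicate 4.

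Between the crosses, which share no control, 0 of 75 members differed in their response at an adjusted p under 0.05 in edgeR, against 0.118% of 15213 genes, and 3 (4%) had an unadjusted p under 0.05 against 10.3%. In all, 45 members (60%) were below 0 in both crosses, 13 in the Ehmt2 cross alone, 13 in the Ezh2 cross alone and 4 in neither. Of 13349 genes, 24.4% were below 0 in both. With 58 of 75 members below 0 in each cross, a large overlap arises even if the crosses are unrelated. The Ehmt2 signs used here include replicate 4. The sizes of the changes were not correlated, with r = -0.10 across the 75 genes, which share libraries and are not independent.

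Rps4x gave the widest contrast. This X-linked gene of the small subunit (ENSMUSG00000031320, chrX:102184941-102189394) was at 536, 455, 487 and 915 CPM across Ehmt2 controls 1 to 4 and 664, 523, 526 and 983 CPM across the 4 Ehmt2 knockouts. It was at 572, 500.3 and 445 CPM in the Ezh2 controls and 383, 459 and 396 CPM in the Ezh2 knockouts. Every Ehmt2 knockout lay above the control mean of its own replicates and every Ezh2 knockout below, but groups overlapped in both crosses. The Ezh2 change was -0.29 ± 0.12 (edgeR adjusted p = 0.668) and the Ehmt2 change without replicate 4 was 0.21 ± 0.11. With all epiblasts, the difference between the crosses was 0.48 ± 0.16 with a 95% interval of 0.15 to 0.81 (unadjusted p = 0.00735, edgeR adjusted p = 0.418). Summed CPM of the Y-linked genes Ddx3y, Eif2s3y, Kdm5d and Uty was 54.8 and 74.7 in Ehmt2 controls 2 and 4, 76.4 in Ehmt2 knockout 4, 68.4 in Ezh2 control 2 and 58.8, 70.3 and 75.6 in the Ezh2 knockouts, and at most 0.566 in the others. The 3 Ezh2 knockouts thus all had Y-linked reads and 3 of the 4 Ehmt2 knockouts had almost none, and the part of this in Rps4x was not tested. None of the other X-linked members passed the test, with log2 fold changes of -0.057 ± 0.14 and -0.16 ± 0.10 for Rpl36a, and for Rpl39, at the exit tunnel, of -0.10 ± 0.11 and 0.031 ± 0.10 in the Ehmt2 and Ezh2 crosses. Without replicate 4 the Ehmt2 values were 0.11 ± 0.12 for Rpl36a and 0.0058 ± 0.11 for Rpl39, so that all 3 X-linked members lay above 0 there, none past the test. Rpl10a and Rpl31 were the other members with an unadjusted p under 0.05 for the difference, at -0.41 ± 0.19 and -0.31 ± 0.14, both lower in the Ehmt2 cross. Their own Ehmt2 changes were -0.26 ± 0.14 and -0.092 ± 0.088, and -0.034 ± 0.075 and -0.019 ± 0.085 without replicate 4.

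No member of any role list passed the test in either cross. Rplp0, the base of the P stalk that recruits elongation factors, served under the name Arbp as the reference gene for the single-cell RT-qPCR of the study. It was at 427, 378, 410.2 and 1157 CPM across Ehmt2 controls 1 to 4 and 392, 388, 411 and 1215 CPM across the 4 Ehmt2 knockouts. It was at 407, 365 and 386 CPM in the Ezh2 controls and 338, 373 and 365 CPM in the Ezh2 knockouts. Knockouts and controls overlapped in both crosses, with changes of -0.0046 ± 0.075 and -0.10 ± 0.10 and 95% intervals of -0.17 to 0.16 and -0.32 to 0.11. Its stalk partners Rplp1 and Rplp2 had 0.044 ± 0.070 and 0.038 ± 0.078 in the Ehmt2 cross and -0.055 ± 0.12 and 0.021 ± 0.13 in the Ezh2 cross. Without replicate 4 the Ehmt2 values were -0.031 ± 0.080, 0.063 ± 0.079 and 0.033 ± 0.089 for Rplp0, Rplp1 and Rplp2.

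Rpl5 and Rpl11, which with 5S ribosomal RNA form the particle that binds Mdm2 when ribosome assembly fails, had -0.083 ± 0.10 and -0.049 ± 0.081 in the Ehmt2 cross and -0.10 ± 0.093 and -0.044 ± 0.12 in the Ezh2 cross. Without replicate 4 the Ehmt2 changes turned to 0.045 ± 0.087 and 0.026 ± 0.077. The 6 genes around the mRNA path and decoding site (Rps2, Rps3, Rps9, Rps23, Rps15 and Rpsa) had medians of -0.069 and -0.020 in the Ehmt2 and Ezh2 crosses, or -0.011 in the Ehmt2 cross without replicate 4. The 8 exit tunnel genes had medians of -0.10 and -0.013, with 8 and 4 of them below 0, and in the Ehmt2 cross without replicate 4 a median of -0.014 with 5 below 0. The 9 genes of Diamond-Blackfan anaemia had medians of -0.12 and -0.10, with 8 and 9 below 0, and the Ehmt2 value was -0.013 without replicate 4. Rpl38 and Rpl24, known for patterning and pigment mutants, had -0.12 ± 0.10 and -0.19 ± 0.14 in the Ehmt2 cross (-0.080 ± 0.11 and 0.046 ± 0.084 without replicate 4), and Rps27a, made as a fusion with ubiquitin, -0.075 ± 0.10 and -0.16 ± 0.10 in the Ehmt2 and Ezh2 crosses (-0.070 ± 0.12 in the Ehmt2 cross without replicate 4). Small subunit genes had medians of -0.071 and -0.10, and large subunit genes -0.11 and -0.079, in the Ehmt2 and Ezh2 crosses; without replicate 4 the Ehmt2 medians were -0.035 and -0.033.

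The member nearest to each deleted gene was looked at, since a deletion is inherited with the chromosome around it. Rps18 lies 943 kb from Ehmt2 on chromosome 17 (ENSMUSG00000008668, chr17:33952000-33955660) and was at 285, 271, 281 and 662 CPM across Ehmt2 controls 1 to 4 and 288, 249.8, 273 and 409 CPM across the 4 Ehmt2 knockouts. The groups of the first 3 replicates overlapped, and the change was -0.21 ± 0.11 (edgeR adjusted p = 0.522) or -0.046 ± 0.086 without replicate 4. Chromosome 17 also carries Rps28 at 1074 kb from Ehmt2, Rpl10a at 6567 kb and Rps10 at 7263 kb, with Rps2 and Rpl36 farther away. The part of this linkage in the Rps10 and Rpl10a values given above was not tested. Rpl32 is the member nearest to Ezh2, 68210.5 kb away on chromosome 6, and had a change of -0.053 ± 0.13 (edgeR adjusted p = 0.962).

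By far the largest differences among the members were between replicate 4 and the other Ehmt2 epiblasts, irrespective of genotype. A test of this contrast, 2 epiblasts against 6 and chosen after the data were seen, called 72 of 75 members higher in replicate 4 by edgeR (96%, against 13.3% of all genes) and 1 lower (1.33%, against 5.71%). The median was 1.21 over the members and 0.081 over all genes. For 72 members both epiblasts of replicate 4 exceeded all 6 others, as they did for 19.1% of all genes. Library, litter and any difference in preparation cannot be told apart here. Visceral endoderm markers summed to 2.01 and 1.49 CPM in replicate 4 against 9.06 to 57.5 CPM in the other 6, with 5 of 8 tested called lower (Ttr, Apoa1, Apob, Cubn and Hnf4a), and 4 of the 8 extraembryonic ectoderm markers were called lower (Cdx2, Elf5, Tfap2c and Esrrb). Of the 8 epiblast markers, 3 were called higher in replicate 4, Pou5f1 by 0.96, Nanog by 0.77 and Fgf5 by 0.86 on the log2 scale. The list was mixed: 3 of 8 lay below 0 (Sox2 at -0.53, Tdgf1 at -0.43 and Dnmt3b at -0.03), 0 were called lower, and the median was 0.15. The 8 markers summed to 2770 CPM in control 4 and 2303 CPM in knockout 4, within the 1552 to 2972 CPM of the other 6. The part of these markers in the difference was not tested.

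Rplp1 rose most, by 2.53 ± 0.073 on the log2 scale (edgeR adjusted p = 1.24e-08), from 289 to 320.1 CPM in the 6 epiblasts to 1782 CPM in control 4 and 1762 CPM in knockout 4. Rps27 rose by 2.51 ± 0.10, Rps29 by 2.38 ± 0.10, Rps16 by 2.34 ± 0.078 and Rplp2 by 2.31 ± 0.082. Rpl10a and Rpl29 did not pass the test, at 0.17 ± 0.16 and 0.18 ± 0.18. Rpl5 was the exception in direction: it was at 904, 829, 857 and 762 CPM across Ehmt2 controls 1 to 4 and 948, 779.8, 947 and 549.6 CPM across the 4 Ehmt2 knockouts, lower in replicate 4 with a log2 difference of -0.43 ± 0.12 (edgeR adjusted p = 0.0352), whereas its partner Rpl11 rose by 1.48 ± 0.088. The differences thus ran from -0.43 to 2.53 among the members.

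Short transcripts of other genes were also higher in replicate 4. Among genes that are no members, the median was 0.28 for 184 transcripts below 500 nt, 0.54 for 770 of 500 to 1000 nt, 0.35 for 2662 of 1000 to 2000 nt, 0.10 for 5533 of 2000 to 4000 nt and -0.088 for 4525 longer ones. The members lay above the other genes of their length, at 1.84 (8 members), 1.22 (40), 1.05 (21) and 1.28 (5) in the same bins, with 1.75 for the longest, Rps15a. The part of length in the rise of the members was not tested. Knockout against control, the medians of the other genes stayed between -0.033 and 0.024 in all 5 bins of the Ehmt2 cross.

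**Figure D5:**
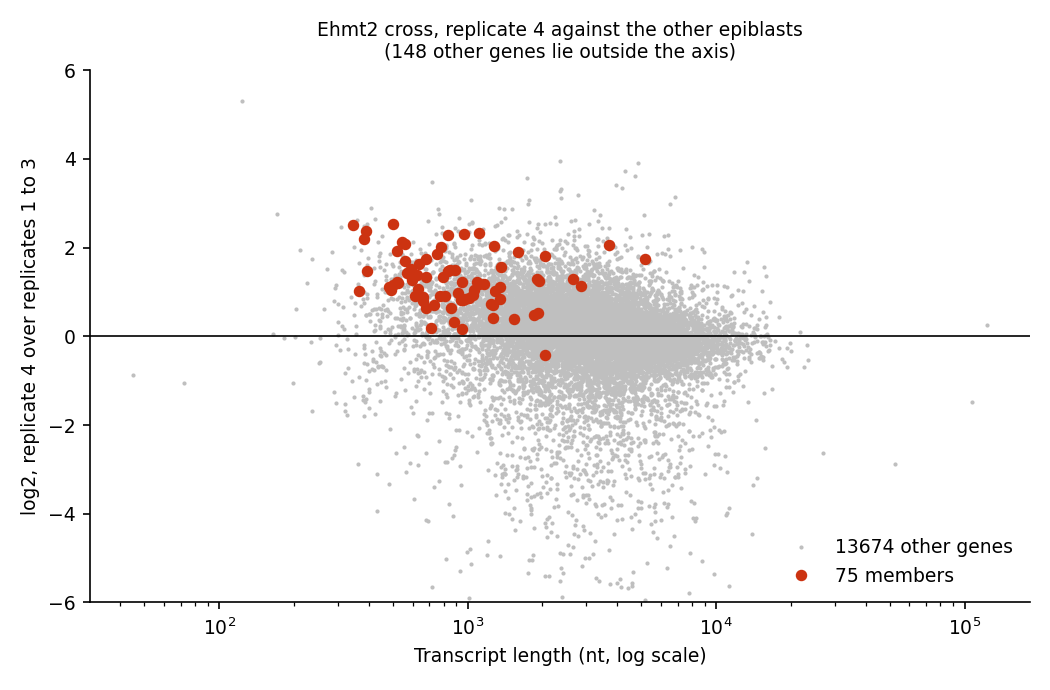
Log2 difference between replicate 4 and the other 6 epiblasts of the Ehmt2 cross against transcript length (log scale) for 75 members (red) and 13674 other genes (grey); 148 other genes lie beyond the axis. Of the members, 74 lie above 0 and only Rpl5 below, and other short transcripts also lie mostly above 0.

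Genes outside the naming rule that work with the ribosome had no call in the knockouts either. Of 13 translation factors with TOP mRNAs, 23 initiation factors, 36 ribosome biogenesis genes, 14 RNA polymerase I genes and 78 mitochondrial ribosomal protein genes, 0 were called in either cross. Their medians lay between -0.035 and 0.016 in the Ehmt2 cross and between -0.077 and -0.0070 in the Ezh2 cross. Of the ribosomal paralogs, 4 of 5 could be tested and 0 were called. In replicate 4, 42 of the 78 mitochondrial ribosomal protein genes were higher and 0 lower, with a median of 0.77. Biogenesis genes were mixed there, with 10 higher and 4 lower and a median of 0.051, and 9 of 13 translation factors with TOP mRNAs were higher and 2 lower.

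Processed copies of ribosomal protein genes are common in the mouse genome, and reads shared with a near-identical copy are uncertain. The 133 listed genes that are named as pseudogenes of members held 712 to 947 counts in 12 epiblasts and 3374 and 4006 counts in control 4 and knockout 4, at most 0.128% of the counts in the members. Copies that do not carry the symbol of a member were not looked for, so these counts are a lower limit. Whether counting used the strand was not analysed here, so reads of overlapping and antisense genes cannot be told apart. How reads that fit several places were treated was not analysed here.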

How the data were processed

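RNA of single E6.25 epiblasts (750 pg each) was amplified and sequenced. The authors trimmed reads to 40 nt, aligned them with TopHat2 to GRCm38 and deposited HTSeq counts per Ensembl release 74 transcript, with no normalisation. Of 72515 transcripts, 70021 (96.6%) were matched to GENCODE vM21. The files of replicate 4 held a row of unaligned reads, which was dropped. It made up 12.6% and 13.3% of the counts in the file of control 4 and knockout 4. Reads shared by isoforms are counted more than once there, so these are not percentages of reads. Short reads are shared by isoforms, so isoform counts are not independent. Per gene, the transcript with the highest mean count was used. Each cross was fitted separately in edgeR 4.0.16 (filterByExpr, TMM, quasi-likelihood) over all transcripts, 49872 and 50855 of them, with Benjamini-Hochberg adjustment. The SE of a log2 fold change is its absolute value divided by the square root of the quasi-likelihood F statistic, and intervals were computed from it. The Ehmt2 fit had a term for replicate 4, since the source data of the study compare knockout 4 with control 4. CPM are TMM-scaled within a cross over all transcripts. The summed CPM of marker lists and Y-linked genes are the exception, TMM-scaled over all 14 epiblasts together. Shares of all genes use 1 transcript per gene. Scripts were tested on simulated data. Alternatives were DESeq2, other scalings, no count filter, 1 transcript per gene, the replicate block and each epiblast left out. Each sample is a separate embryo.

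Named members were those called in a fit, the 5 largest increases and decreases per cross that went the same way in every knockout, the 5 highest and lowest levels per kb, role lists, X-linked members, those nearest the deleted genes, and Rplp0. Members and lists were chosen with earlier results of these data known. The other tools were DESeq2 1.42.0, R 4.3.3 and scipy 1.17.1. Chromatin and methylation data of the series were not used here, and results for some genes are not reported.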

Additional observations from a re-analysis of the deposited data

Results flagged for a closer look

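In both Ehmt2 groups replicate 4 lay far from the other 3 epiblasts in the share of the library taken by ribosomal protein genes, at 12.8% in the control and 11.0% in the knockout, where the gap to the nearest epiblast was 96.1% and 96.2% of the whole range of the group. By the same measure, 58 of the 75 members had an outlying epiblast among the Ehmt2 controls and 50 of 75 among the Ehmt2 knockouts, and in each of these the outlying epiblast was replicate 4. Chance marks about 1 group in 20, but the members share the same libraries and are not independent groups. The share of all genes marked in this way is not given. By another measure, both epiblasts of replicate 4 exceeded all 6 others for 72 members and for 19.1% of all genes. Groups of 3, as in the Ezh2 cross, were not examined in this way.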

How the results depend on the processing

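The count of 0 members called held in both crosses and in the difference between them under every alternative that was run, with smallest adjusted p values of 0.164 to 0.800 in the Ehmt2 cross, 0.231 to 0.812 in the Ezh2 cross and 0.353 to 0.886 for the difference. The median log2 fold change of the members stayed below 0 in both crosses under every alternative. In the Ehmt2 cross it was -0.15 without the term for replicate 4, -0.033 without replicate 4, -0.32 in knockout 4 against control 4 alone (added after the data were seen), and -0.14 to -0.03 with single epiblasts left out. Without control 4 or without knockout 4 the median was -0.035 or -0.034. The term for replicate 4 takes up the epiblast that remains, so either fit in effect repeats the one without replicate 4. With library totals alone the Ehmt2 median was -0.071 (all genes 0.04), and in the Ezh2 cross -0.047 (all genes 0.07). Leaving out single epiblasts moved the Ezh2 median between -0.14 and -0.04.

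Counts of members whose groups do not overlap depended on single epiblasts. In the Ehmt2 cross they were 0 to 5 lower and 0 to 1 higher. For the Ehmt2 cross without replicate 4, 5 lower (6.67%) and 1 higher (1.33%) stood against 9.26% and 10% of all genes. In the Ezh2 cross they were 6 to 30 lower and 0 to 8 higher with 1 epiblast left out. The extremes were 30 lower without knockout 2 and 8 higher without knockout 1. With library totals alone they were 3 lower and 2 higher. Smaller groups overlap less often, and shares of all genes are not given for these Ezh2 alternatives. Nothing is therefore read from the Ezh2 counts. The knockout minus control share ran from -1.80 to 1.28 percentage points in the Ehmt2 cross, the extremes without knockout 4 and without control 4, and from -0.37 to 0.10 in the Ezh2 cross, the extremes without knockout 2 and without knockout 1. Between replicate 4 and the rest, 73 members were called over all transcripts and 71 with 1 transcript per gene.

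When replicate number entered as a block, the median was -0.094 in the Ehmt2 and -0.074 in the Ezh2 cross, no member was called, and members with an unadjusted p under 0.05 went from 5 to 1 and stayed at 3. As a check of pairing, deviations of same-numbered epiblasts correlated at 0.06 to 0.42 in the Ehmt2 cross, at -0.01 to 0.03 within replicates 1 to 3, and at -0.18 to 0.23 in the Ezh2 cross. Control 4 and knockout 4 deviated together (0.42), which the term for replicate 4 takes up, and the other numbers were not taken as pairs. Leaving out replicate 4 took the Ehmt2 count at an unadjusted p under 0.05 from 5 to 0. Where values moved, the cause was not tested.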
